A study of Mus musculus with 20 samples.

Results

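The regions described here carried trimethylation of histone H3 lysine 27 (H3K27me3) in the Nkx2-1 conditional mutant and lay on chromatin marked by trimethylation of lysine 4 (H3K4me3) in the wild type. They were chosen from peak lists: a mutant H3K27me3 region on chromosomes 1 to 19 counted when no wild-type H3K27me3 region overlapped it and a wild-type H3K4me3 region overlapped it by at least 1 base. Rows of the mutant list that repeated a region for each of its summits were merged first. The rule found 2089 such regions among 27229 mutant H3K27me3 regions. Because the lists for H3K27me3 in both genotypes and for wild-type H3K4me3 chose the regions, values from these 3 lists are given as description. "New" means called in the mutant and not called in the wild type, so wild-type signal under the calling threshold cannot be told from no signal.

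H3K27me3 is deposited by Polycomb repressive complex 2 and is found over genes that are silent or held at low output, while H3K4me3 marks the start sites of genes that are transcribed or poised. Chromatin that carries both marks is called bivalent and is common at developmental regulators. In bulk tissue such an overlap can also come from different cells, 1 mark in each, and peak lists cannot tell these apart. H3K27ac marks active promoters and enhancers and cannot sit on the same lysine as H3K27me3, and H3K4me1 marks enhancers and the flanks of promoters. NKX2-1 is the homeodomain transcription factor that specifies the medial ganglionic eminence (MGE), the embryonic source of many cortical interneurons, and LHX6 is a LIM-homeodomain factor that acts downstream of it.

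The 4 histone marks were profiled in C57BL/6 MGE at embryonic day 13.5, in wild-type embryos and in embryos of the genotype labelled Nkx2-1cKO, a conditional deletion whose Cre driver is not given in the sources used here. NKX2-1 and LHX6 were profiled in wild-type CD-1 basal ganglia at the same age, so strain and dissection differ between factor and mark libraries. Each antibody and genotype had 1 library, which leaves no replicate error and allows no test between genotypes. Shares are therefore given with exact 95% Clopper-Pearson intervals, which cover counting error only. Where a pair of values is given for a mark, the wild type comes first and the mutant second.

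The libraries kept 26.8 to 89.1 M ChIP tags after removal of duplicates. The 2 H3K27me3 libraries kept 50.2 M in the wild type and 46.7 M in the mutant, and their lists held 20931 and 27229 regions. The H3K4me3 libraries were the shallowest, at 28.8 and 26.8 M tags, with 28.3% and 34.0% duplicates. Within 2.5 kb of their start sites, the GABAergic genes Dlx1 and Gad1 held 5.001 kb of H3K27ac in both genotypes, the whole window. The cortical excitatory genes Emx1, Tbr1, Neurod6 and Eomes, the endothelial genes Pecam1 and Cdh5 and the microglial genes Csf1r and Cx3cr1 held none in either. The Nkx2-1 start site kept H3K4me3 and H3K27ac regions in the mutant, which does not check the deletion, since a peak over a promoter need not fall in the deleted part.

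The windows of 120 bases around the summits of the 4 most strongly called new regions whose window lies outside exons are printed first, with the strongest new region away from H3K4me3 for comparison, because the 2 groups differed in CpG content. They come from the NCBIM37 assembly (mm9), plus strand, 5′ to 3′, with every CG in capitals.
Elavl2, chr4:91037640-91037759: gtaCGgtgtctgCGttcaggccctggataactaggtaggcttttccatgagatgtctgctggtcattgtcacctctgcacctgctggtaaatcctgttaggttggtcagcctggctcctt
Plagl1, chr10:12834193-12834312: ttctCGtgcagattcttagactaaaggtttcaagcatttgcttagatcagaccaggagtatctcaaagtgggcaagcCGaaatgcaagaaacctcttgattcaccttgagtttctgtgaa
Fzd4, chr7:96554506-96554625: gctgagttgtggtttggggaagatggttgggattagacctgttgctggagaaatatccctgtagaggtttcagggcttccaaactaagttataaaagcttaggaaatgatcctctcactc
Syt1, chr10:108446766-108446885: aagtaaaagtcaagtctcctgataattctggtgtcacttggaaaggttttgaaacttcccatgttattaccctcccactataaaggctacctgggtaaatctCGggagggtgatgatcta
Away from H3K4me3, Epha7, chr4:28898263-28898382: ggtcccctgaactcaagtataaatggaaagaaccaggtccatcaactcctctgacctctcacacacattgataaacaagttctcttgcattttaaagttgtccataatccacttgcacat
The Elavl2 and Plagl1 windows held 2 CG each, the Syt1 window held 1, and the Fzd4 window and the one away from H3K4me3 held 0, so single windows do not show the group difference. Elavl2 encodes a neuronal RNA-binding protein, and its new region had the highest −log10 p, 36.9, with H3K4me3 and H3K27ac called in both genotypes. Fzd4, a Frizzled receptor gene, followed at 34.9 with no H3K27ac in either, and Syt1, for the calcium sensor of vesicle release, had 23.8 with H3K27ac in both. Over the whole length of the 2089 new regions the median ratio of observed to expected CpG was 0.39, against 0.42 in the 7392 mutant regions on H3K4me3 that a wild-type H3K27me3 region overlapped (kept regions) and 0.189 in the 10374 new regions away from H3K4me3. The new regions thus resembled the kept regions in CpG content, which follows H3K4me3, a mark the rule used.

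The second set shows where factor peaks met new regions. In the 4 windows around NKX2-1 summits the NK2 homeodomain core, CACTTGA or CACTCAA on either strand, is in capitals, and in the 2 windows around LHX6 summits the LIM-homeodomain core, TAATTA or TAATGA on either strand.
Mtif3, chr5:147797822-147797941: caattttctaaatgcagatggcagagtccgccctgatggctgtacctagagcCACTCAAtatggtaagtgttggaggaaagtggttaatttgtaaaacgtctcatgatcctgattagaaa
Mfsd2a, chr4:122637747-122637866: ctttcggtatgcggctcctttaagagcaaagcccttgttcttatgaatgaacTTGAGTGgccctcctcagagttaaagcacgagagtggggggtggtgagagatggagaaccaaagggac
Sox2, chr3:34545266-34545385: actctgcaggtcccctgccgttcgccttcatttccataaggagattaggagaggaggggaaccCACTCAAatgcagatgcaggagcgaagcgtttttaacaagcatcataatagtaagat
Pappa, chr4:64913209-64913328: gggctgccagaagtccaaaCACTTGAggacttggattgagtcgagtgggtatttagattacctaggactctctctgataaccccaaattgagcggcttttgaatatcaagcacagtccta
Ttll11, chr2:35867070-35867189: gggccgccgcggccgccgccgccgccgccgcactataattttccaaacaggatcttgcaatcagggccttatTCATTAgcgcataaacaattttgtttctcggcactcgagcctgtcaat
Gm2574, chr3:142764140-142764259: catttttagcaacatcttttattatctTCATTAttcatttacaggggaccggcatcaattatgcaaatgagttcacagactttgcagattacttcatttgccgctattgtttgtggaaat
These are the strongest factor peaks on new regions that held the core in the window, lay outside exons and had a summit word of 32 bases found once in the genome. Regions are named by the nearest protein-coding gene, which need not be the gene they act on.

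The new regions were short and modest. Their median length was 393 bases, against 1625 bases in the kept regions and 360 bases in the new regions away from H3K4me3. Their median −log10 p in the authors' list was 8.53 against 26.5 in the kept regions, and their median fold enrichment was 3.59 against 6.77. At the calling limit stood 87 new regions with a −log10 p of 5.04 and a pileup of 19 tags, and no wild-type region was listed under 5.11 and 20 tags. A −log10 p of at least 10 was reached by 672 of the 2089. Of all 27229 mutant regions 45.8% lacked a wild-type overlap, and of the 9481 on wild-type H3K4me3 22% did. In the other direction, 501 of 9015 wild-type H3K27me3 regions on mutant H3K4me3 (5.56%) had no mutant overlap.

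Part of the set bordered existing Polycomb domains. Wild-type H3K27me3 lay within 1 kb of 744 new regions (35.6%) and within 500 bases of 525 (25.1%). In new regions away from H3K4me3 the shares were 30.7% and 19.6%, and within 5 kb the order was the other way, 50.6% on H3K4me3 and 56.1% away from it. Of the 2089, 690 (33.0%) sat on an H3K4me3 region that also held wild-type H3K27me3 elsewhere along its length. The other 1399 sat on H3K4me3 regions free of wild-type H3K27me3, at a median of 42.1 kb from the nearest wild-type H3K27me3 region. Both groups had the same median −log10 p, 8.53. At the edge of the rule, regions near Slit1, Odz4 and Pik3cd counted as new with a wild-type H3K27me3 region 3, 12 and 15 bases away. Regions near Cdh12, Paqr4 and Acvr2a did not count because 4, 5 and 7 bases were shared. On the H3K4me3 side, regions near Nfam1, Nfatc4 and Gm9881 were included by 1, 5 and 7 shared bases, and regions near Tle1, L3mbtl4 and Rbms3 were left out by gaps of 1, 2 and 3 bases.

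H3K4me3 was still called at nearly all new regions in the mutant, a list the rule did not use. A mutant H3K4me3 region overlapped 2030 of the 2089 (97.2%, 96.4 to 97.8). H3K27ac overlapped 1384 in the wild type (66.3%, 64.2 to 68.3) and 1452 in the mutant (69.5%, 67.5 to 71.5). Both shares are over the same 2089 regions: 1284 had H3K27ac in both genotypes, 100 in the wild type alone and 168 in the mutant alone. H3K4me1 overlapped 87.7% in the wild type and 86.4% in the mutant. Kept regions had H3K27ac at 54.0% and 62.8% and H3K4me1 at 90.3% and 88.4%. Wild-type H3K4me3 regions without wild-type H3K27me3 had H3K27ac at 81.2% and 83.1% and H3K4me1 at 92.5% and 92.8%. Mutant H3K4me3 lay on 99.0% of kept regions and 95.7% of these H3K4me3 regions. Both comparisons are over regions of other lengths. In the mutant all 4 marks met at 1352 new regions (64.7%), and 27 (1.29%) carried H3K27me3 with none of the other 3. These shares of combined marks were not taken for other regions. In covered bases, the new regions spanned 1012 kb, of which H3K27ac lay over 515.1 kb in the wild type and 514.0 kb in the mutant, and H3K4me3 over 733.9 and 770.2 kb. The mutant H3K4me3 list was the longer one, with 42536 regions against 33734: 28.2% of it had no wild-type overlap, and 3.72% of the wild-type list had no mutant overlap.

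**Figure D1:**
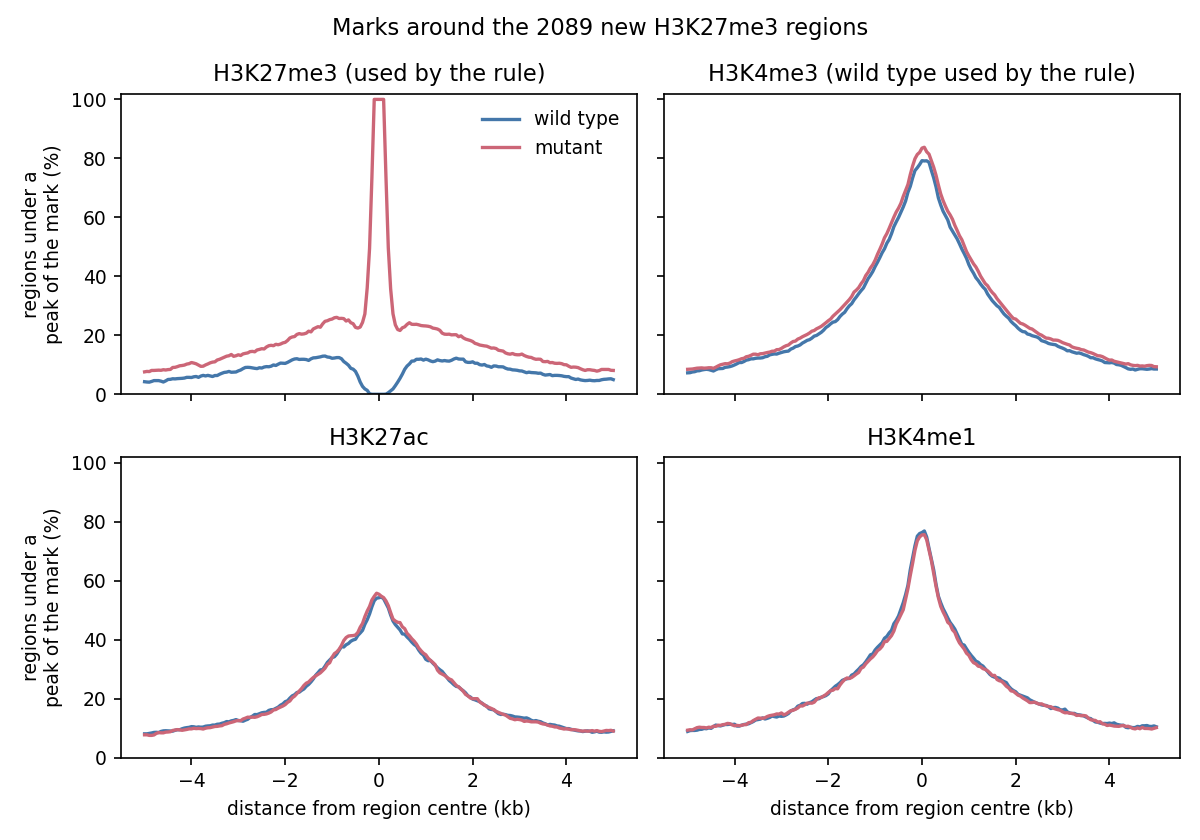
Share of the 2089 new regions under a peak of each mark (y axis, percent) at each distance from the region centre (x axis, kb), in the wild type (blue) and the mutant (red). At the centre H3K27ac covered 54.3% in the wild type and 55.5% in the mutant, and the 2 curves stay close over 5 kb on both sides; H3K27me3 differs by the rule.

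The profile of marks around the region centres shows how the 4 marks lay. H3K27ac covered the centre of 54.3% of the new regions in the wild type and 55.5% in the mutant, and at 1 kb to the plus-strand side 33.4% and 34.9%. H3K4me3 covered 79.2% and 83.5% of the centres. H3K27me3 covered no centre in the wild type by the rule, but 11.9% of the positions 1 kb to the plus-strand side, and 23.2% there in the mutant.

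Fold enrichment was also higher in the mutant lists for 2 of the marks. Where H3K4me3 was called in both genotypes (2030 new regions), the median fold of the overlapping region was 24.1 in the wild type and 30.5 in the mutant. For H3K27ac (1284) it was 6.77 and 7.85, and for H3K4me1 (1731) 5.63 and 5.44. H3K4me3 regions without H3K27me3 in either genotype showed the same direction, with median folds of 12.2 and 20.1 for H3K4me3 and 7.69 and 9.02 for H3K27ac, so the higher mutant fold was not particular to new regions. For H3K4me1 their medians were 5.85 and 5.92.

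Loss of H3K27ac at new regions was uncommon. Of the 1384 with wild-type H3K27ac, 100 had none in the mutant (7.23%, 5.92 to 8.72). The same share was 5.88% (5.17 to 6.66) in kept regions and 44.8% (40.6 to 49.1) in new regions away from H3K4me3. It was also high, at 37.1% (31.7 to 42.7), in mutant regions away from H3K4me3 that a wild-type H3K27me3 region overlapped. The background over the whole wild-type H3K27ac list, which is not limited to H3K4me3, was 19.6%, and 29.6% of the mutant list had no wild-type overlap. The nearer background is wild-type H3K4me3 regions without wild-type H3K27me3, where 3.43% lost it, counted over regions of other lengths. Gain was the more frequent change in share: 168 of the 705 new regions without wild-type H3K27ac had it in the mutant (23.8%, 20.7 to 27.2), against 25.9% in kept regions.

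**Figure D2:**
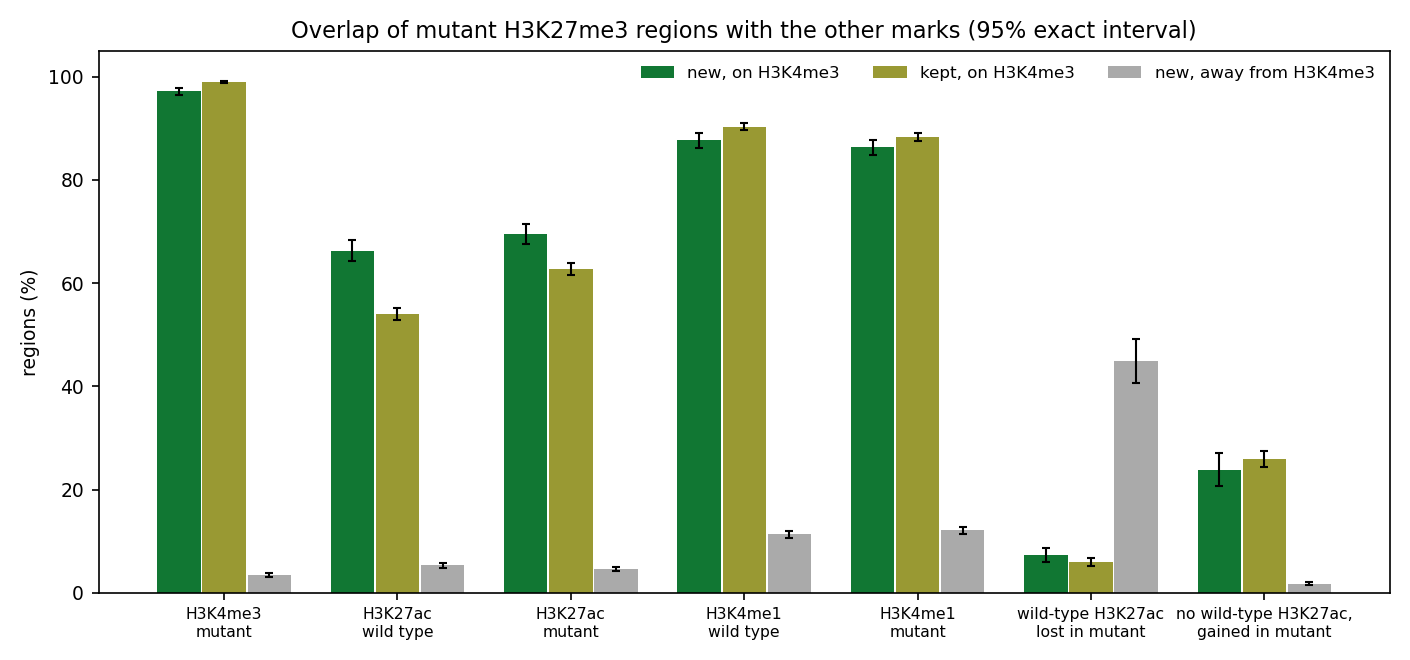
Percent of regions (y axis) overlapped by each mark, with exact 95% intervals as error bars, for new regions on H3K4me3 (green), kept regions on H3K4me3 (olive) and new regions away from H3K4me3 (grey); the last 2 sets of bars give loss and gain of H3K27ac among regions with and without it in the wild type. Loss was 7.23% in new regions on H3K4me3, 5.88% in kept regions on it and 44.8% in new regions away from it.

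The same comparison was made over H3K4me3 regions rather than H3K27me3 regions. H3K4me3 regions with a new region were still the longer ones, at a median of 1098 bases against 846 in those without H3K27me3 in either genotype, and had a median wild-type fold of 18.3 against 11.1. The part of length and fold in the shares was not tested. Of 26736 wild-type H3K4me3 regions without wild-type H3K27me3, 1229 held a new region (4.6%). H3K27ac was lost in the mutant at 48 of the 938 of these that had it (5.12%) and at 3.33% of those without mutant H3K27me3, with 3.43% over all. H3K27ac was gained at 23.7% and 25%, and H3K4me3 was absent from the mutant list at 2.52% and 4.38%, with 4.3% over all. Over all, H3K27ac was gained at 24.9%. Differences of 1 or 2 percentage points between single libraries have no replicate check.

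Among the new regions, those between genes and in gene bodies lost H3K27ac more often in share than those at start sites. The split by place was not made for regions without new H3K27me3, so this order is not known to be particular to new regions. The share was 39 of 377 between genes (10.3%, 7.46 to 13.9) and 22 of 185 in gene bodies (11.9%, 7.61 to 17.5). It was 36 of 697 within 2.5 kb of a start site (5.17%, 3.64 to 7.08) and 3 of 125 over one (2.4%, 0.498 to 6.85). The 3 regions over a start site that lost H3K27ac lay at Cish, a feedback inhibitor of cytokine signalling, at Tle6, of the Groucho co-repressor family, and at Ltbp1, which binds latent TGF-beta. At Tle6 the start site window of 5 kb held 0.903 kb of H3K27ac in the wild type and none in the mutant, H3K4me1 of 2.22 and 0.253 kb, and H3K4me3 of 0.728 and 0.557 kb. H3K27me3 there was 3.12 and 4.42 kb, and the new region had a −log10 p of 19.6. At Ltbp1 0.3 kb of H3K27ac was absent in the mutant, while H3K4me3 was 0.721 and 0.802 kb. At Cish the new region of 259 bases had no mutant H3K27ac, while the window held 1.34 kb of H3K27ac in the wild type and 1.15 kb in the mutant.

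New regions lay beside start sites more often than over them. A protein-coding start site was held by 182 (8.71%, 7.54 to 10), against 33.5% of the longer kept regions. Another 1039 (49.7%) lay within 2.5 kb of one, 317 in gene bodies and 551 between genes. Of the kept regions, 37.1% lay within 2.5 kb of a start site without holding one. Of the 1332 centres within 5 kb of a start site, 816 lay downstream and 514 upstream, at a median distance of 704.5 bases. Kept regions leaned the same way. Of their centres, 13.1% and 13.2% lay 0 to 500 and 500 to 1000 bases downstream, against 9.46% and 7.89% at the same distances upstream.

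**Figure D3:**
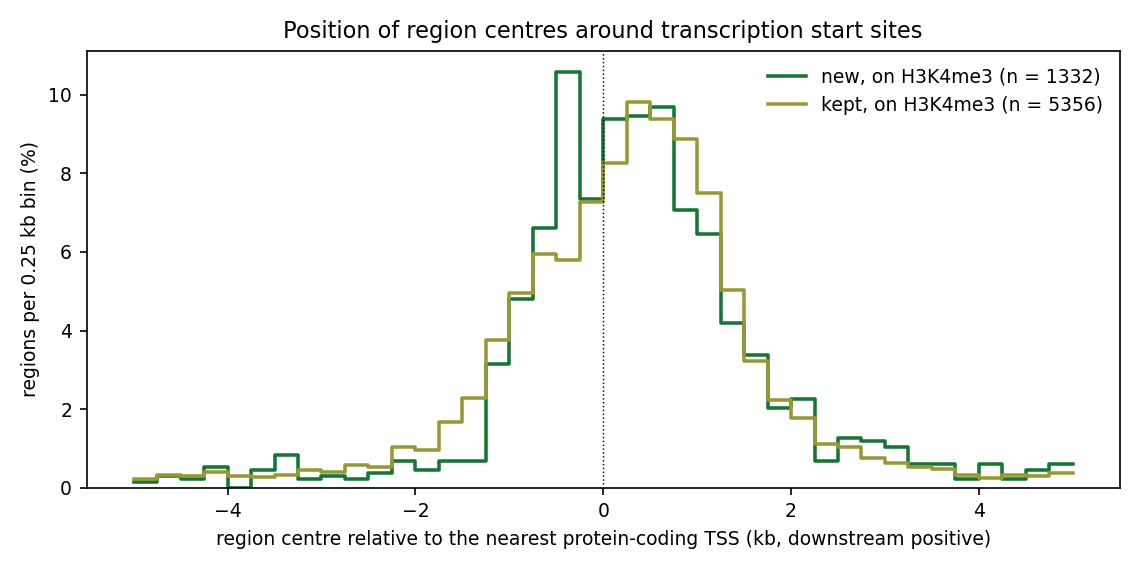
Position of region centres relative to the nearest protein-coding start site (x axis, kb, downstream positive) as percent of regions per 0.25 kb bin (y axis), for 1332 new regions (green) and 5356 kept regions (olive) within 5 kb. Both sets straddle the start site, with 816 new centres downstream and 514 upstream.

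The start sites with the strongest new regions belonged to genes of varied function. At Plagl1, an imprinted gene for a zinc finger protein, 1 new region covered 4319 bases with a −log10 p of 34.9. Its window held no wild-type H3K27me3 and 4.39 kb in the mutant, H3K27ac of 1.81 and 1.13 kb, and H3K4me3 of 0.948 and 0.776 kb, so the activating marks were narrow in both genotypes. At Pla2g7, which inactivates platelet-activating factor, H3K27me3 went from 0 to 1.2 kb with a −log10 p of 19.6, beside H3K27ac of 0.78 and 0.978 kb. At Pcsk1, a prohormone convertase, mutant H3K27me3 was 1.65 kb (−log10 p 18.7), with H3K27ac of 1.54 and 1.17 kb and H3K4me3 of 2.17 and 1.86 kb. At Tnfaip6, a hyaluronan-binding protein, it was 0.776 kb (−log10 p 18.7), with H3K27ac of 2.44 and 2.0 kb.

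Tcf4, a bHLH factor of interneurons, carried a new region of 843 bases (−log10 p 17.1) at 1 of its start sites, where H3K27ac was 2.25 kb in the wild type and 2.15 kb in the mutant. Rasgef1a, an exchange factor for Ras, was the one strong start site that also held an NKX2-1 peak. There H3K27me3 was 0 and 1.66 kb, H3K27ac 1.58 and 0.52 kb, and H3K4me3 1.63 and 1.98 kb. Fzd9, a Wnt receptor, had 1.53 kb of H3K27me3 in the wild type already and 2.15 kb in the mutant, with H3K27ac of 1.16 and 1.76 kb. The remaining strong start sites were Fam69c, Gm9920, Gm6899 and Cpn1, with −log10 p from 14.8 to 16.4. Of these, Cpn1 held no H3K27ac in either genotype. Among the 12, H3K27ac length in the mutant was lower at Plagl1, Tle6, Pcsk1, Tnfaip6, Rasgef1a, Tcf4 and Fam69c and higher at the rest that had any.

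Length singled out other start sites. After Plagl1 the longest new regions over a start site were at Fgfr2 (2277 bases), a fibroblast growth factor receptor, Otop3 (1550), a proton channel, Sync (1217), an intermediate filament protein, Pla2g7 (1203) and Rasgef1a (1163). Fgfr2 kept the whole 5.001 kb window under H3K4me3 and H3K27ac in both genotypes while 2.77 kb came under mutant H3K27me3. Otop3 and Sync held no H3K27ac in either genotype and had 1.87 and 1.47 kb of wild-type H3K27me3 beside the new region.

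The start sites with the highest mutant H3K4me3 fold were another set, chosen by that fold. Kcnk10, a potassium channel, had an H3K4me3 fold of 40.6 in the wild type and 50.2 in the mutant, 5.001 kb of H3K27ac in the wild type and 4.93 kb in the mutant, and a new region with a −log10 p of 6.7. Man1a2, Znrf1, Sema6a, Elavl4, Amotl2, Shroom3 and Lmo3 followed, with mutant H3K4me3 folds of 42.3 to 48.4 and −log10 p of the new region from 5.58 to 9.17. At Lmo3, a LIM-only protein of MGE-derived neurons, 1.19 kb of mutant H3K27me3 lay within H3K27ac of 4.78 and 4.84 kb. All 8 had H3K27ac in both genotypes.

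The genes near new regions included MGE transcription factors, interneuron genes, axon guidance genes and genes of signalling pathways. A new region held a start site of 179 of 21281 protein-coding genes (0.841%) and lay within 2.5 kb of 1063 (5%). Because a new region needs H3K4me3, the fairer base is the 14043 genes with wild-type H3K4me3 within 2.5 kb, of which 7.57% had one. It was 13.7% of the 4327 that also had wild-type H3K27me3 there and 4.86% of the 9716 that did not. Counts for 21 gene lists, in which 653 of 677 names matched, are read against these shares; the 2.5 kb window was chosen after the data were seen, since only 15 listed genes had a start site held.

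Transcription factors of the MGE and ventral telencephalon had a new region within 2.5 kb at 12 of the 33 with H3K4me3, of which 31 also had wild-type H3K27me3. They were Lhx8, Sox6, Satb1, Maf, Dlx1, Dlx2, Zeb2, Tcf12, Lmo3, Lmo4, Etv1 and Zic1. Genes of cortical interneurons had one at 12 of 32, among them Npy, Reln, Cxcr4, Kcnc2 and Cux2. Axon guidance and adhesion genes had one at 22 of 64, FGF, Notch and retinoic acid genes at 13 of 39, SHH pathway genes at 4 of 16 and cholinergic genes at 3 of 11. Shares were lower for genes of the lateral and caudal eminences (5 of 32), WNT and BMP genes (7 of 48), progenitor and cell cycle genes (4 of 27), channels and receptors (10 of 78), imprinted genes (3 of 26), housekeeping genes (2 of 18), the oligodendrocyte lineage (1 of 9) and Polycomb and Trithorax subunits (2 of 41). Several genes stand in more than 1 list.

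No new region lay within 2.5 kb of a gene in 7 lists. They were pallial neurons (15 genes with H3K4me3), endothelium, mural cells and blood (15), microglia (1), choroid plexus and meninges (11), lung and thyroid targets of NKX2-1 (5), regulators of other tissues (67) and Hox clusters (18). The room for a new region differed between lists. Wild-type H3K27me3 already lay over a median of 4.93 kb of the window at the 67 regulators of other tissues with H3K4me3, which left a median of 0 kb of H3K4me3 free of it. At the 33 MGE factors the median free length was 0.723 kb, at the 64 guidance and adhesion genes 2.35 kb, and over all 14043 genes 1.97 kb. The part of this free length in the list counts was not tested.

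**Figure D4:**
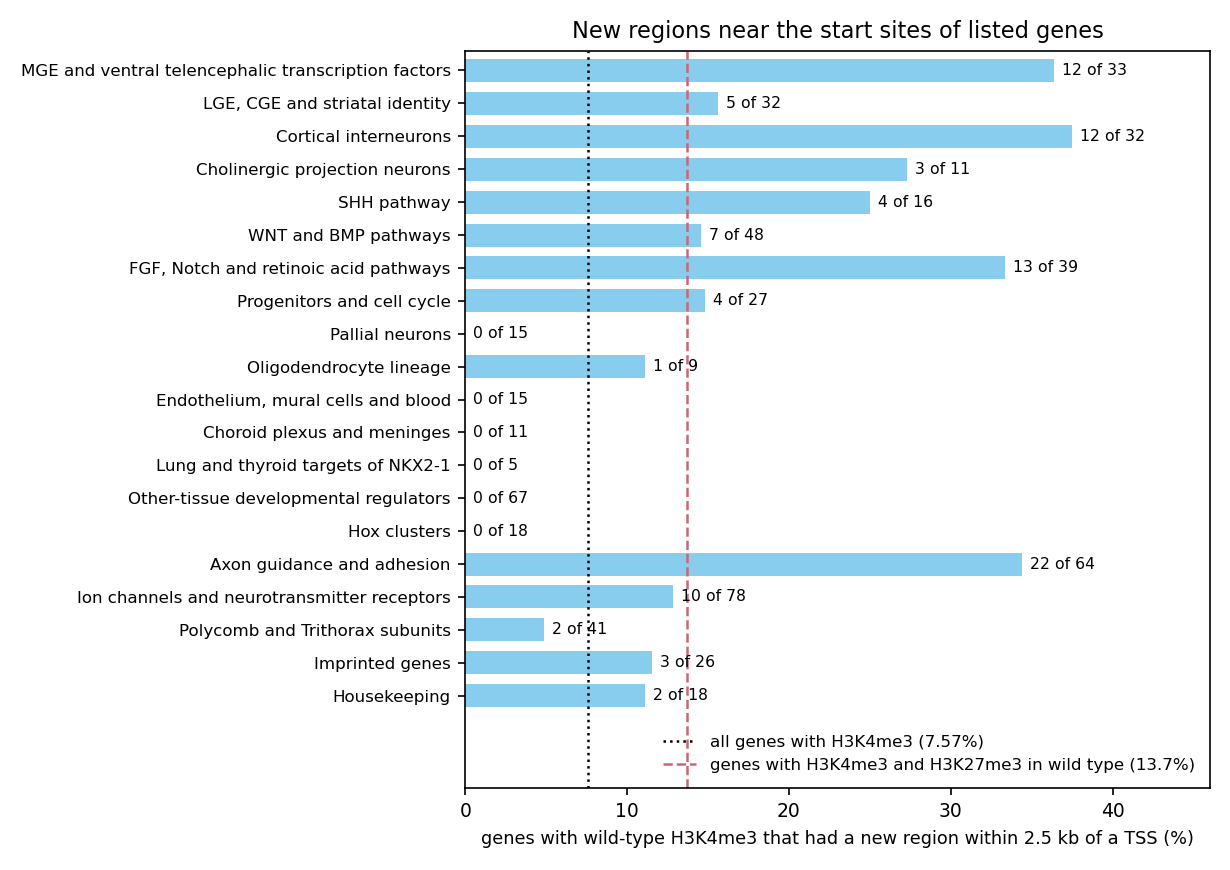
Percent of genes with wild-type H3K4me3 (x axis) that had a new region within 2.5 kb of a start site, for 20 gene lists (y axis), with the counts beside the bars; dotted line, all genes with H3K4me3 (7.57%), dashed line, genes with H3K4me3 and H3K27me3 in the wild type (13.7%). MGE factors (12 of 33), interneuron genes (12 of 32), guidance genes (22 of 64) and FGF, Notch and retinoic acid genes (13 of 39) have the highest shares, and 6 of the lists shown are at 0.

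Among the 89 listed genes with a new region nearby, H3K27ac in the window was shorter by at least 0.5 kb in the mutant at 14 and longer by that much at 17. Over all 14043 genes with H3K4me3 the shares were 1.84% shorter and 6.89% longer. These were measured around the start site with most wild-type H3K4me3, not the one nearest a new region, and mostly at genes without a new region. By that measure, genes with a new region had 6.98% and 16.6% where wild-type H3K27me3 was present and 3.39% and 8.26% where it was not. The counts of 14 and 17 are therefore not matched to these shares. Sox6, an SRY-box factor of MGE-derived interneurons, had 4.78 kb of H3K27ac in the wild type and 2.44 kb in the mutant, with H3K27me3 of 3.77 and 4.52 kb. Lhx8, the LIM-homeodomain factor of cholinergic neurons, had 1.31 kb of H3K27ac in the wild type and none in the mutant around the start site nearest its new region, and H3K4me3 of 4.51 and 1.01 kb. Around another Lhx8 start site H3K27ac was 4.03 and 0.753 kb. At Npy, the neuropeptide of an interneuron class, H3K27ac was 1.36 and 0.267 kb and H3K4me3 3.22 and 1.94 kb. Cux2, a homeodomain factor, had H3K27ac of 3.09 and 1.41 kb with H3K27me3 of 0 and 1.16 kb. At Kcnc2, a fast potassium channel of interneurons, H3K27ac was 2.19 and 1.27 kb. These 5 are named because their H3K27ac was shorter, and longer H3K27me3 beside a new region follows from the rule.

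Other listed genes kept H3K27ac around the new region. Dlx1 and Dlx2, homeodomain factors of GABAergic progenitors, held 5.001 and 5.001 kb and 4.05 and 3.82 kb. Dll1, a Notch ligand, had 4 new regions within 2.5 kb and 5.001 kb of H3K27ac in both genotypes, and Hes5, a Notch target, had 5.001 kb in both. The Notch target Hes1 held 3.47 and 3.67 kb, and the ligand Jag1 3.84 and 3.89 kb. In the SHH pathway the receptor gene Ptch1 held 2.96 and 3.48 kb, the antagonist Hhip 1.94 and 1.6 kb, and Gli3, which acts mainly as the repressor of the pathway, 2.66 and 4.4 kb. Crabp2, a retinoic acid binding protein, held 4.43 and 3.82 kb. Among genes of the lateral eminence, Foxp2 held 2.73 and 3.68 kb and Tle4 1.9 and 3.37 kb.

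Guidance genes with new regions mostly held like lengths of H3K27ac in both genotypes. Of the 22, it was shorter by 0.5 kb or more at Ephb3 and Nrxn2 and longer at Sema3a. Epha7, an ephrin receptor, had 3 new regions, the strongest with a −log10 p of 19.6, and H3K27me3 of 0.25 and 2.41 kb beside H3K27ac of 2.91 and 2.90 kb. Cdh8, a cadherin, had 4 new regions, H3K27me3 of 0 and 2.05 kb, and H3K27ac of 3.59 and 3.61 kb. The Slit receptor genes Robo1 and Robo2 held 2.04 and 2.29 kb and 3.45 and 3.52 kb. At these loci new H3K27me3 was called where both activating marks remained called.

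Across genes, acetylation near new regions was compared by the length of H3K27ac within 2.5 kb of 1 start site per gene, the one with most wild-type H3K4me3. Of 472 genes with a new region and no wild-type H3K27me3, 16 had H3K27ac shorter by at least 0.5 kb in the mutant (3.39%) and 39 longer (8.26%). Their H3K4me3 was shorter at 1.48% and longer at 8.05%. Among 9292 genes with neither new region nor other mutant H3K27me3 the shares were 1.37% and 4.15% for H3K27ac and 0.204% and 5.2% for H3K4me3. Of 487 genes with a new region beside wild-type H3K27me3, 34 were shorter (6.98%) and 81 longer (16.6%), against 2.08% and 12.7% of 3605 such genes without a new region. Their H3K4me3 was shorter at 2.46% and longer at 7.19%, against 0.555% and 11.8% of the 3605, with 0.413% and 7.05% over all genes. For H3K27ac both shares were higher in genes with a new region, while for H3K4me3 beside wild-type H3K27me3 the longer share was lower. Median wild-type H3K27ac also differed between the groups of 487 and 3605, at 1.63 and 0.577 kb. The part of that difference in the counts was not tested.

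The genes with the largest shortening, chosen after their values were seen, included Sox6, Acpl2, Sulf2 and Lmo1. Acpl2 had H3K27ac of 4.12 and 2.27 kb, H3K4me3 of 4.03 and 2.5 kb, and H3K27me3 of 0 and 2.15 kb. Sulf2, a heparan sulfate endosulfatase, had H3K27ac of 4.01 and 2.49 kb with H3K4me3 of 4.27 and 4.32 kb. The largest lengthening was at Pde2a, a phosphodiesterase, with H3K27ac of 1.12 and 3.16 kb, and at the nuclear receptor gene Esrrg, with 1.69 and 3.58 kb. H3K27me3 near Pde2a was 0 and 0.322 kb.

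Some new regions lay close together. With gaps of up to 25 kb, 718 of the 2089 (34.4%) fell into 305 clusters of 2 or more, and 12 clusters held 5 or more. The same share was not taken for kept regions or for H3K4me3 regions, so it does not show clustering beyond theirs. The largest lay at Sox2, the progenitor factor, with 8 new regions over 33.4 kb. There H3K27me3 covered 17.8 kb in the wild type and 23.6 kb in the mutant, and H3K27ac 32.3 and 32.7 kb, so nearly the whole span was acetylated in both. Neural POU factors had 2 clusters, with 6 new regions at Pou3f3 and 5 at Pou3f2, where H3K27ac was 21.3 and 21.7 kb and 9.44 and 10.3 kb. Dll1, Runx1t1, Zfp608 and Bcl11b, a factor of striatal and cortical neurons, had 5 each, and mutant H3K27ac at Bcl11b was the longer, at 18.3 and 21.04 kb. A further 5 lay at the microRNA gene Mir9-2, with Mef2c the nearest protein-coding start site at 199.9 kb, where H3K27ac was 13.8 and 14.3 kb.

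Acetylation was shorter in the mutant by over 1 kb at 4 of the 12 clusters. At Igdcc3, a member of the immunoglobulin superfamily, 7 new regions spanned 39.5 kb, none of it under wild-type H3K27me3, and H3K27ac covered 22.02 kb in the wild type and 12.7 kb in the mutant. A cluster of 7 between genes on chromosome 2, from 146546553 to 146589205 and 92.4 kb from the nearest start site, that of Plk1s1, held 7.59 and 3.17 kb. A cluster of 5 from 88007538 to 88036287 on chromosome 3, 22.3 kb from Rhbg, held 28.8 and 24.2 kb. At Plagl1 H3K27ac was 5.43 and 4.22 kb. NKX2-1 peaks in the cluster spans numbered 5 near Rhbg, 4 at Sox2, 2 at Igdcc3 and 1 each at Pou3f3, Zfp608 and Mir9-2. The clusters named for Plk1s1, Plagl1, Runx1t1, Dll1, Pou3f2 and Bcl11b held none. The 12 clusters together were not compared with others.

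**Figure D5:**
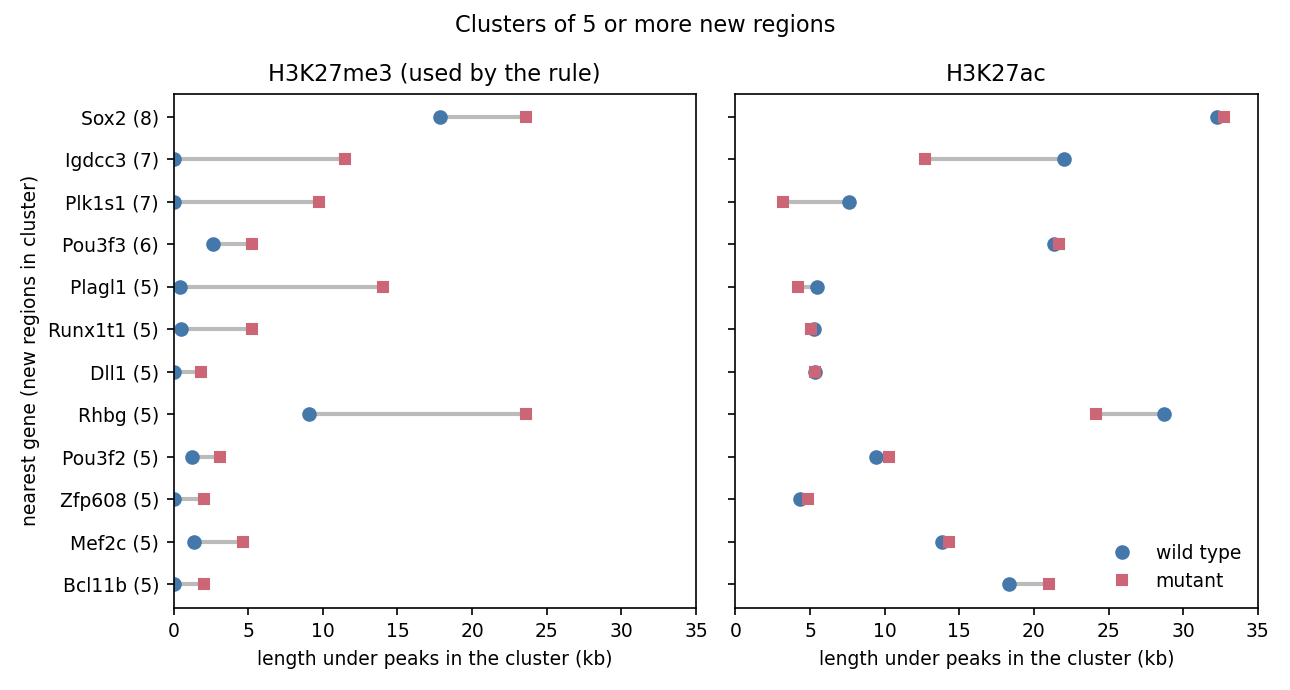
Length under H3K27me3 (left) and H3K27ac (right) peaks (x axis, kb) in the 12 clusters of 5 or more new regions (y axis, nearest gene and number of regions), in the wild type (blue circles) and the mutant (red squares). H3K27ac is shorter in the mutant by the most at Igdcc3, from 22.02 to 12.7 kb, while Sox2 and Dll1 stay at like lengths.

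Few new regions carried a factor peak. NKX2-1 peaks overlapped 49 of the 2089 (2.35%, 1.74 to 3.09) and LHX6 peaks 11 (0.527%, 0.263 to 0.94), with 7 regions under both. These were 0.873% of the 5613 NKX2-1 peaks and 0.692% of the 1589 LHX6 peaks. Kept regions on H3K4me3 had an NKX2-1 peak at 3.59% and new regions away from H3K4me3 at 0.598%, over different lengths. Per H3K4me3 region without wild-type H3K27me3, 7.57% of those with a new region had an NKX2-1 peak (6.15 to 9.19) and 11.9% of those without mutant H3K27me3 (11.5 to 12.3). NKX2-1 peaks thus were not more frequent where new H3K27me3 was called.

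Regions with NKX2-1 peaks mostly lay more than 2.5 kb from a start site, and most had H3K27ac called in both genotypes. Only 10 of the 49 held or lay within 2.5 kb of a start site. Wild-type H3K27ac lay on 39 and H3K27ac of both genotypes on 36, so 3 of the 39 lost it, against 7.23% over all new regions with wild-type H3K27ac. An overlap of 1 base counted, so H3K27ac called in both genotypes could still differ in length, as at some regions named below. The summit fell inside the new region at 30 of 49 NKX2-1 peaks and 7 of 11 LHX6 peaks, and beside it at the rest, as in the Ttll11 window printed above. In the 200 bases around the summit the NK2 core was found at 14 of 49 (28.6%, 16.6 to 43.3). It was found at 21.6% of all NKX2-1 peaks and at 17.9% of those on wild-type H3K4me3. The LIM core was found at 6 of 11 LHX6 summits (54.5%, 23.4 to 83.3), against 42.3% of all LHX6 peaks and 50.6% of those on wild-type H3K4me3. The summit word of 32 bases occurred more than once in the genome at 3 of the 11 LHX6 peaks, those named Gm11167, Gm15319 and Gm14496, and at none of the 49 NKX2-1 peaks.

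The strongest NKX2-1 peaks on new regions were named for Ttll11 (−log10 p 107.7), Ptgs1 (105.4), Arid1b (101.9), Mab21l2 (97.3), Ccdc39 (57.3), Mtif3 (44.7), Grik3 (42.9) and Mfsd2a (41.9). The new regions under the first 7 of these lay 11.7 to 153.3 kb from a start site. Around the Mtif3 regions H3K27ac was 1.32 kb in the wild type and 0.257 kb in the mutant, with no wild-type H3K27me3 and 1.54 kb in the mutant. Around the Ccdc39 region, which also held an LHX6 peak, H3K27ac was 1.89 and 1.69 kb. A region inside Agap1, nearest to D130058E05Rik and under both factors (−log10 p 39.2 and 19.1), had H3K27ac of 2.05 kb in the wild type and none in the mutant, with H3K27me3 of 0 and 2.8 kb and H3K4me3 of 1.52 and 1.45 kb. The LHX6 peak at Gm2574 (−log10 p 43.8) lay on a region with H3K27ac of 1.78 and 1.0 kb and H3K27me3 of 0 and 1.54 kb.

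The locus of Lhx6 itself, examined after the data were seen, held 4 new regions within 135.9 kb of its start site. One lay in the gene, 6.61 kb from the start, at chr2:35943153-35943413, where H3K4me3 within 2.5 kb of the region's centre was 4.8 kb in the wild type and 0 in the mutant, H3K27ac 1.64 and 0 kb, and H3K27me3 1.81 and 2.4 kb. The Ttll11 region lay 82.4 kb from the Lhx6 start site and held 2 NKX2-1 peaks, with H3K27ac of 4.82 and 2.63 kb and H3K4me1 of 3.77 and 1.42 kb. A Ptgs1 region lay 109.5 kb away on the other side and held 1 NKX2-1 peak, with H3K27ac of 4.59 and 2.5 kb and H3K27me3 of 1.32 and 2.81 kb. These 3 windows already held wild-type H3K27me3. The fourth region, also nearest to Ptgs1, had none in the wild type and 0.302 kb in the mutant, and no H3K27ac in either. At the Lhx6 start site H3K27ac was 4.41 kb in the wild type and 0 in the mutant, and H3K4me3 5.001 and 0.575 kb.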

How the data were processed

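ChIP-seq peak lists of 10 libraries from embryonic day 13.5 were used, 1 per antibody and genotype, and 10 input or control libraries without a peak list were not. Per the submitters' processing notes, the tools were MACS2 2.1.0, BWA 0.6.2, bcl2fastq 1.8.4 and CASAVA 1.8.2, and the genome build was mm9. Per the file headers, peaks were called in each library against its control with a p cutoff of 1.0e-05 and a tag extension of 250 bases. The deposited values per peak are the pileup signal, the −log10 p and the fold enrichment ratio, all as the authors' caller gave them. Whether embryos were pooled is not given in the sources used here.

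Repeated rows of a region were merged. Overlaps (1 base), covered lengths and distances to GENCODE vM1 protein-coding start sites came from scipy 1.17.1, pysam 0.24.0, pandas 2.3.3 and numpy 2.4.6 under Python 3.11.15, and overlaps were checked with bedtools 2.31.1 and tested on simulated data. Marks near a gene or region were measured as the length under peaks in a window of 5001 bases. Genes named are those with the strongest, the longest, the acetylation-losing and the highest H3K4me3 new regions over a start site, those under the strongest factor peaks, and listed genes. The members and lists were chosen with earlier results of these data known, and the 2.5 kb gene counts, clusters, motifs, CpG ratios, miRNA genes, free H3K4me3 lengths and genes with the largest H3K27ac differences were chosen after the data were seen. Alternatives changed the overlap, the peak thresholds, the distance to wild-type H3K27me3, the joining of regions and the chromosomes. Values of some genes are not reported here.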

Additional observations from a re-analysis of the deposited data

How the results depend on the processing

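Of 73 values for 9 results under alternative settings, 48 moved by less than their interval or by under 1.5 times for the count and 25 moved further. The number of new regions, 2089, became 672 with a −log10 p of at least 10 in the mutant H3K27me3 list, 1345 without wild-type H3K27me3 within 1 kb, 1106 with H3K27me3 regions under 1 kb apart joined, and 1349 with the mutant list cut to its strongest regions, as many as the wild-type list holds. The last of these, the bar on wild-type H3K27me3 anywhere on the H3K4me3 region and the start site distance of 2.5 kb were chosen after seeing the data. The median length became 379, 740, 530, 512.5 and 444 bases with overlap of 50% of the shorter region, a −log10 p of 10 in every list, the same in the mutant H3K27me3 list, joining, and the matched number. The −log10 p of 10 in every list gave 1579 regions. It also dropped weaker wild-type H3K27me3 regions, so mutant regions that overlapped only those then counted as new. The values of that set, the 740 bases included, are therefore not those of a stricter part of the 2089. With the −log10 p of 10 in every list, mutant H3K4me3 was 98.4%, H3K27ac 57.1% in the wild type and 64.3% in the mutant, NKX2-1 peaks 1.58% and start sites 13.1%. With joining these were 70.2% and 73.2% for H3K27ac, 1.63% and 12.3%. With overlap of 50% H3K27ac was 64% and 66.9% and its loss 9.23%. Without wild-type H3K27me3 within 1 kb, wild-type H3K27ac was 68.8% and NKX2-1 peaks 1.64%. Mutant H3K27ac was 66.4% with the stricter mutant H3K27me3 list, and 58.5% of new regions lay over or within 2.5 kb of a start site. The cause was not tested.

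No paired analysis was possible because the groups compared have 1 library each and no test was run. Without replicates no difference between genotypes has a measured error, and how depth limits weak H3K27me3 regions was not tested.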

Other observations

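New regions also lay near microRNA genes. Of 907 hairpins from RefSeq (GRCm38.p6) with a single placement on chromosomes 1 to 19 of NCBIM37, 41 had a new region within 10 kb (4.52%). All 3 genes of miR-9, a microRNA of neural progenitors, were among them, at 1.23 kb for Mir9-3, 0.709 kb for Mir9-2 and 8.03 kb for Mir9-1. They give the same mature 5p strand, shown with its seed (bases 2 to 8) in capitals.
mmu-miR-9-5p: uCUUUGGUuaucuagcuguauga
Within 10 kb on each side H3K27ac covered 19.9 kb in the wild type and 19.7 kb in the mutant at Mir9-3, 13.5 and 14.5 kb at Mir9-2, and 20.1 and 16.8 kb at Mir9-1. Mir9-1 lies within the chromosome 3 cluster near Rhbg and Mir9-2 within the cluster described at it. The values at these microRNA genes are therefore not separate from those of the clusters. Mir1897, in the Sox2 locus, had 4 new regions within 10 kb, and Mir34b and Mir34c shared 1.

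On chromosome X, which the rule left out, 89 of 848 mutant H3K27me3 regions met the same criteria, with H3K27ac at 45 of them in the wild type and 46 in the mutant. The opposite set, 501 wild-type H3K27me3 regions on mutant H3K4me3 without mutant H3K27me3, had a median length of 331 bases and H3K27ac at 56.3% in the wild type and 70.1% in the mutant.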
